A study of Mus musculus with 21 samples.

Results

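The comparison described here set infarcted hearts of mice labelled as Fap knockout against hearts of sham-operated wild-type mice, and asked what response to injury is left when Fap is removed. Members were chosen by their labels alone: 4 knockout libraries and 3 sham libraries, 7 of the 21 in the series, with every gene that passed a filter on low counts (17064 genes). The gene's product, fibroblast activation protein, is a serine protease on the surface of activated fibroblasts. All tissue carried the label border zone (the rim of living muscle around an infarct) and was taken at day 7 after myocardial infarction (coronary occlusion) or sham operation. The sham tissue carries the same label although it has no infarct. The series also holds 4 infarcted wild-type libraries, which serve here to show where the knockout hearts differ, 4 libraries of infarcted wild-type hearts with a treatment labelled FAPI, which entered the fit and are not described, and 6 of cultured fibroblasts, which were not used.

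The heart answers an infarct in steps. Damaged muscle and matrix fragments draw neutrophils and then monocytes, which turn into macrophages and clear debris, while resident fibroblasts become activated and lay down collagen that is later crosslinked into a scar. Surviving cardiomyocytes at the border lower the genes of fatty acid oxidation and respiration and switch on genes of the fetal heart, among them the natriuretic peptides. Fap is switched on in the activated fibroblasts, and the series title ties its inhibition to BNP, the peptide encoded by Nppb.

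The knockout hearts differ from the sham hearts in genotype and in operation at once, and no knockout sham group is in the samples given, so effects of the genotype and of the infarct cannot be told apart in this comparison. Whether Fap was deleted in the whole animal or in one cell type, and which exons were removed, is not given in the sources used here. Nothing in the labels ties each library to a separate mouse, and the p-values therefore speak only of the spread among these libraries, which may be technical. The 7 libraries held 20827206 to 30571068 gene counts, and the share of counts from the mitochondrial genome was 15.16% to 19.56% in sham and 12.99% to 14.11% in knockout hearts. Markers of heart muscle were high in both groups, which does not tell border zone from other heart tissue. The 21 cardiomyocyte markers summed to 118700 to 139800 CPM (counts scaled to a common library size, here by the TMM method) in sham and 69280 to 83880 CPM in knockout hearts. In infarcted wild-type hearts, under the same tissue label, they summed to 14060 to 41300 CPM.

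Fap itself was read first, as a check of the labels. Its level was 2.71, 3.40 and 3.86 CPM in the sham hearts, 2.19, 2.32, 2.36 and 1.79 CPM in the knockout hearts and 9.40 to 13.2 CPM in the infarcted wild-type hearts. The knockout hearts were the lowest and did not overlap with either group. Fap (chromosome 2, 62500943 to 62574075, minus strand, mm10) was lower in the knockout, with a log2 fold change against sham of -0.61 ± 0.19 (SE; edgeR quasi-likelihood test with Benjamini-Hochberg adjustment, adjusted p = 0.0197), and lower than in infarcted wild-type hearts by -2.36 (adjusted p = 6.94e-08). Reads counted to the gene remained in every knockout heart. The call against sham was lost under total-count and upper-quartile scaling, with limma-voom and without sham replicate 2, sham replicate 3 or knockout replicate 4, with log2 values from -0.74 to -0.08. Dpp4, the nearest relative of Fap and its neighbour on chromosome 2, read 2.65, 1.63 and 1.93 CPM in sham and 0.816, 0.920, 0.958 and 1.75 CPM in knockout hearts, with the highest knockout heart inside the sham range and a log2 fold change of -0.90 ± 0.36 that did not pass (adjusted p = 0.0564), while the difference from infarcted wild-type hearts did (log2 -1.01, adjusted p = 0.0133).

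Knockout infarcted and sham hearts differed at many genes. Of 17064 genes, 6740 (39.5%) differed between knockout and sham hearts at an adjusted p of 0.05, 3281 of them higher (19.2%) and 3459 lower (20.3%). At least 2-fold changes were called for 2028 genes (11.9%), 1273 higher and 755 lower, and at least 4-fold changes for 211 higher and 82 lower genes. The 2 groups of libraries did not overlap for 7988 genes (46.8%). In infarcted wild-type hearts, set against the same sham hearts, 11783 genes were called (69.1%; 37.1% higher and 32.0% lower). The median absolute log2 fold change of called genes was 0.74 in the knockout and 1.19 in the wild type. Knockout and wild-type infarcted hearts differed from each other at 8700 genes (51.0%; 25.0% higher and 26.0% lower in the knockout). Among the hearts left out in turn, sham replicate 1 moved the count against sham most, to 4721 genes.

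Scaling set the balance of directions. Over all genes, the median log2 fold change against sham stood at 0.05 under TMM and at 0.59 when libraries were scaled to their total counts. Under total-count scaling 9994 genes were called, 9169 higher and 825 lower (91.7% higher against 48.7% under TMM), and 4281 at the 2-fold limit, 4103 higher. Upper-quartile scaling gave 6829 genes, 59.9% higher. For knockout against wild-type infarcted hearts total-count scaling called 12531 genes, 2076 higher and 10455 lower, and for infarcted wild-type hearts against sham 14700 genes, 86.1% of them higher. Each direction below is therefore relative to the median gene, and lists whose direction turned are named.

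**Figure D1:**
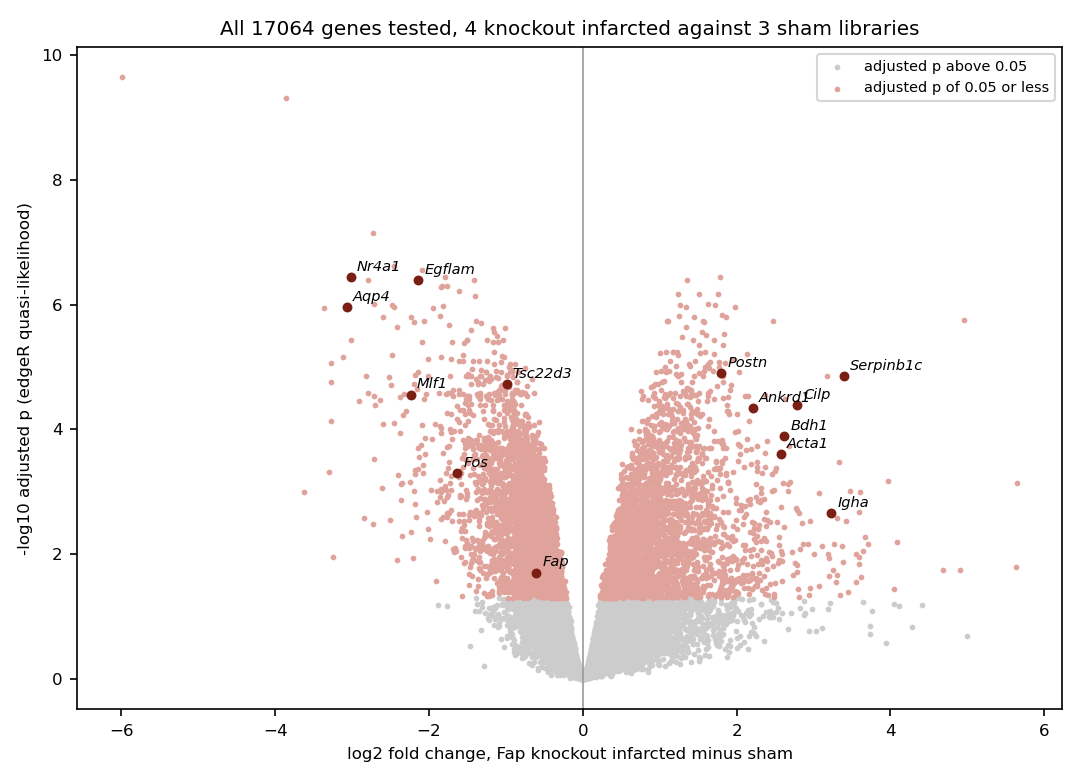
Log2 fold change of each of 17064 genes between 4 knockout infarcted and 3 sham libraries (horizontal) against -log10 of the adjusted p (vertical), with called genes in red and 14 genes labelled. Matrix and stress genes such as Postn, Cilp, Acta1 and Ankrd1 lie to the right, and Nr4a1, Aqp4 and Fos to the left.

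Scar-forming genes rose in the knockout hearts, where 19.2% of all genes were higher than in sham. Of 24 tested genes for fibrillar collagens and matrix assembly 23 were higher and 0 lower (median log2 1.38, against 0.05 for all genes), and 18 of 20 activated fibroblast genes were higher and 0 lower (median 1.55). Postn, periostin, the matricellular protein that marks activated cardiac fibroblasts, read 152.4, 197.9 and 175.1 CPM in sham and 589.6, 588.1, 589.1 and 663.4 CPM in knockout hearts, 3.47-fold higher (log2 1.80 ± 0.20, adjusted p = 1.25e-05). The lowest knockout heart had nearly 3 times the level of the highest sham heart. Eln, elastin, rose from 74.4, 97.9 and 102.6 CPM to 390.4, 426.1, 287.5 and 339 CPM (log2 1.98 ± 0.17, adjusted p = 1.11e-06). Col3a1, a fibrillar collagen, rose 3.27-fold (log2 1.71, adjusted p = 3.72e-06), and Col1a1, the main collagen of scar, rose 2.33-fold from 764.7 ± 126 CPM (SD, n = 3) to 1784 ± 285 CPM (SD, n = 4; edgeR adjusted p = 0.0023). For all 24 members of the collagen list the knockout libraries did not overlap the sham libraries, as was the case for 46.8% of all genes.

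Matrix genes were mostly lower in knockout than in wild-type infarcted hearts, beside 26.0% of all genes. With no knockout sham group, a difference in the effect of infarction could not be tested. All 21 cardiomyocyte markers were higher in the knockout of these 2 infarcted groups (median log2 2.28), beside 25.0% of all genes. The part of muscle content in the matrix difference was not tested. Against sham, the same collagen list had a median log2 of 2.40 in infarcted wild-type hearts, and the direct comparison of knockout with wild-type infarcted hearts called 21 of its 24 genes lower and 0 higher in the knockout (median -0.90). Of the activated fibroblast genes 16 of 20 were lower and 2 higher in the knockout than in the wild type. Postn was lower by -0.90 (adjusted p = 0.000507) and Col1a1 by -1.46 (adjusted p = 0.000135). Meox1, a transcription factor of activated fibroblasts, was one of the exceptions: 18.5, 16.8 and 15.3 CPM in sham, 37.4, 38.8, 42.0 and 40.1 CPM in knockout and 24.7 to 31.0 CPM in wild-type infarcted hearts, so the knockout was above both (log2 1.23 over sham, adjusted p = 5.7e-06; 0.52 over wild type, adjusted p = 0.000766).

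Genes that process and anchor the matrix were read against sham, beside 19.2% of all genes higher and 20.3% lower. Of 18 genes for collagen crosslinking and processing 13 were higher and 0 lower (median 0.99), led by the crosslinking oxidases Loxl1 (log2 1.56, adjusted p = 1.84e-06) and Lox (1.62, adjusted p = 8.87e-06) and by Adamts2, which trims procollagen (1.53, adjusted p = 6e-06). Of 20 genes of TGF-beta signalling, the main profibrotic pathway, 15 were higher and 0 lower (median 0.71), among them Ltbp2 and Ltbp3, of a family of matrix proteins most of which bind latent TGF-beta (1.71 and 1.51), the ligand Tgfb3 (1.38) and the receptor Tgfbr2 (1.06). Of 18 matrix proteases and inhibitors 10 were higher and 1 lower. Timp1, a protease inhibitor induced by injury, rose (log2 1.65, adjusted p = 8.33e-06), and Timp4, the inhibitor made by heart muscle, fell (log2 -1.07, adjusted p = 0.00493). Among 13 basement membrane genes 7 were higher and 2 lower, with Col4a1 from 60.9, 65.3 and 74.1 CPM in sham to 178.8, 160.3, 172.1 and 168.7 CPM in knockout hearts (log2 1.35 ± 0.10, adjusted p = 4.02e-07).

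Several other fibroblast products were among the largest increases. Cilp, a cartilage matrix protein also made by injured-heart fibroblasts, read 11.6, 17.6 and 27.7 CPM in sham and 111.8, 74.0, 212 and 124.4 CPM in knockout hearts (6.89-fold, log2 2.79 ± 0.36, adjusted p = 4.03e-05), and did not differ detectably from the wild-type infarcted hearts (log2 0.42, adjusted p = 0.246). Sfrp2, a secreted Wnt modulator, rose 4.56-fold (log2 2.19, adjusted p = 0.000205). Resting fibroblast genes were mixed, with 6 of 12 higher and 2 lower, beside 19.2% of all genes higher and 20.3% lower. Mfap5, a microfibril protein, rose 3-fold (log2 1.58, adjusted p = 9.88e-06), while Gsn, gelsolin, fell from 1327, 1237 and 1232 CPM to 551.6, 431.9, 639.1 and 377 CPM (log2 -1.34, adjusted p = 1.39e-05). In bulk tissue, more cells of a type and more RNA per cell cannot be told apart.

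**Figure D2:**
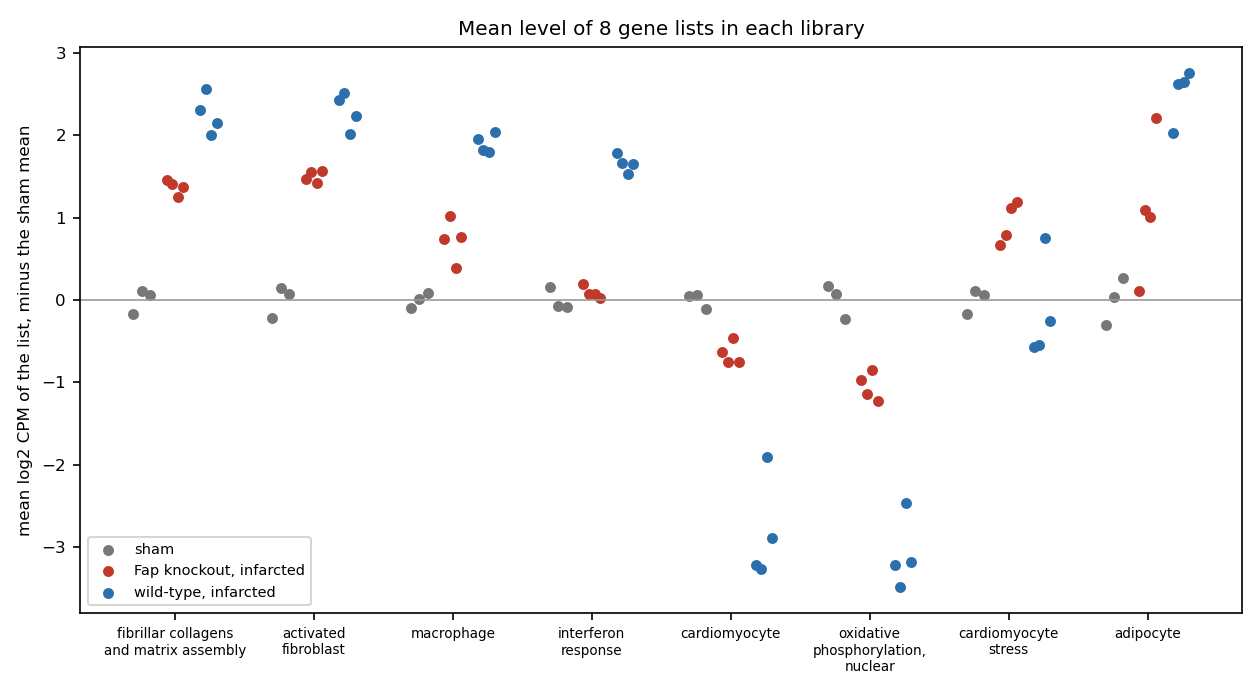
Mean log2 CPM of 8 gene lists in each library, minus the mean of the sham libraries (vertical), for 3 sham, 4 knockout infarcted and 4 wild-type infarcted libraries, 1 point a library. Knockout hearts lie between sham and wild-type infarcted hearts for the matrix, macrophage, cardiomyocyte and respiration lists, with sham for the interferon list, and above all sham libraries for the stress list.

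Leukocyte genes rose in part, and the knockout counts against sham stand beside 19.2% of all genes higher. In infarcted wild-type hearts 37.1% of all genes were higher than in sham. In knockout hearts 26.0% of all genes were lower than in wild-type infarcted hearts. Of 18 macrophage genes 14 were higher and 0 lower (median log2 0.69), against 17 higher and a median of 1.94 in the wild type, and 17 of the 18 were lower in knockout than in wild-type infarcted hearts. Cx3cr1, the fractalkine receptor of monocytes and macrophages, rose from 4.62, 4.44 and 5.65 CPM to 12.02, 14.38, 12.2 and 13.18 CPM (log2 1.40, adjusted p = 5.57e-05), and its ligand gene Cx3cl1 rose by 1.60 (adjusted p = 3.02e-06). Ccr2, the receptor that draws monocytes from blood, rose from 2.40, 3.14 and 4.34 CPM to 10.99, 15.67, 12.09 and 13.84 CPM (4.01-fold, log2 2.00, adjusted p = 5.74e-05). For Cx3cr1 and Ccr2 the knockout libraries did not overlap the sham libraries, as was the case for 46.8% of all genes. Lgals3, galectin-3, a product of activated macrophages, rose 3.33-fold (log2 1.74, adjusted p = 0.000336), and Trem2, a lipid receptor of the same cells, by 1.25 (adjusted p = 0.00357). Of 10 class II antigen presentation genes 8 were higher and 0 lower (median 0.99), and of 14 complement genes 11 were higher and 0 lower (median 0.76), with C4b highest at log2 2.02 (adjusted p = 0.000174). Of 23 chemokine and chemokine receptor genes 12 were higher and 0 lower. Of 17 genes of the interleukin-1 and interleukin-6 families 8 were higher and 0 lower, including the receptors Il1r1 (log2 1.47, adjusted p = 2.77e-05) and Osmr (1.07, adjusted p = 3.11e-05).

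Neutrophil and lymphocyte genes were read from 3 further lists, beside 19.2% of all genes called higher in knockout than in sham hearts. In infarcted wild-type hearts 37.1% of all genes were higher than in sham. In knockout hearts 26.0% of all genes were lower than in wild-type infarcted hearts. Of 10 neutrophil genes 1 was called, Csf3r, the receptor for the neutrophil growth factor G-CSF (0.986, 0.588 and 1.03 CPM in sham; 2.40, 2.11, 2.10 and 2.11 CPM in knockout; log2 1.32, adjusted p = 0.00449), whereas 10 of 10 were called higher in the wild type, and 8 of 10 were lower in knockout than in wild-type infarcted hearts. Of 12 T and NK cell genes 3 were higher and 0 lower, and all 12 were lower in the knockout than in the wild type. The calls for the T cell genes Lck and Cd8a were lost without sham replicate 2 or knockout replicate 2, among other libraries. Of 10 B cell genes 1 was higher, Cd79b, and that call was lost without knockout replicate 2 or 4 and without sham replicate 2 or 3. The immunoglobulin genes Igha, the constant region of IgA, and Ighg2c, of IgG, were higher: Igha read 3.76, 5.49 and 11.4 CPM in sham and 17.2, 60.8, 71.9 and 106.2 CPM in knockout hearts (log2 3.23 ± 0.71, adjusted p = 0.0022), a wide spread among the knockout hearts with no overlap. Mast cell protease genes fell: Tpsb2 from 10.8, 4.51 and 4.76 CPM to 1.29, 1.60, 1.92 and 2.03 CPM (log2 -1.97, adjusted p = 0.000922) and Cma1 by -1.75 (adjusted p = 0.00113). Of 5 mast cell genes 4 were lower and 0 higher (median -1.53), beside 20.3% of all genes lower. Mcpt4 and Cpa3, the other 2 called, lost the call under total-count scaling and without sham replicate 1. In infarcted wild-type hearts 4 of the 5 were also lower than in sham and 1 higher (median -1.49), beside 32.0% and 37.1% of all genes.

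Few interferon-stimulated genes passed the test. In knockout against sham hearts 1 of 25 interferon-stimulated genes was higher, Zbp1, a sensor of nucleic acids. The 1 lower gene was Irf9, part of the interferon-activated transcription factor. The list median was log2 0.09, and 19.2% of all genes were higher and 20.3% lower. All 25 were higher in infarcted wild-type hearts against the same sham hearts (median 1.55), beside 37.1% of all genes. All 25 were lower in knockout than in wild-type infarcted hearts (median -1.66), beside 26.0% of all genes. Isg15, the ubiquitin-like modifier induced by interferon, read 22.1, 18.3 and 19.0 CPM in sham, 25.5, 22.5, 22.4 and 18.6 CPM in knockout and 65.1 to 83.2 CPM in wild-type infarcted hearts. Knockout and sham libraries overlapped, and neither overlapped with the wild-type infarcted libraries (log2 -1.74 for knockout minus wild type, adjusted p = 3.36e-07). Ifit1, an RNA-binding antiviral protein, read 25.3, 20.4 and 20.4 CPM in sham, 19.9 to 24.5 CPM in knockout and 73.5 to 105.9 CPM in wild-type infarcted hearts, with a log2 fold change over sham of 0.02 ± 0.15. Zbp1 rose from 7.39, 6.92 and 6.96 CPM to 8.63, 10.8, 9.51 and 10.8 CPM (log2 0.48, adjusted p = 0.00306). Under total-count scaling, where the median gene stood at 0.59, 21 of the 25 were called higher against sham with a list median of 0.64, close to that of the median gene. Irf9 lost its call without sham replicate 1 and turned to 0.14 under total-count scaling.

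Upstream stretches of 2 of these genes are shown to describe their letters. The motif searched was the core of the interferon-stimulated response element, GAAA, any 2 bases, GAAA, on both strands; matches may overlap, and capitals mark them. In RefSeq windows of 300 bases (250 before and 50 after the start; GRCm38.p6), 11 of the 18 listed genes with a window held the motif, among them Isg15, Ifit1, Ifit3, Rsad2 and Stat2, against 3.99% of all 27025 genes and 3.44% of all 32851 windows. The stretches run from 160 to 41 bases before the start, 5′ to 3′ on the gene's strand. Isg15 lies on the minus strand at chr4:156200859-156200978, with 3 overlapping matches, and Ifit1 on the plus strand at chr19:34640729-34640848, with 2 matches read on the opposite strand.
Isg15: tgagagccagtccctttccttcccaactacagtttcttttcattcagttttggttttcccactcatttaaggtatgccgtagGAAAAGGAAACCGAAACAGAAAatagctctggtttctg
Ifit1: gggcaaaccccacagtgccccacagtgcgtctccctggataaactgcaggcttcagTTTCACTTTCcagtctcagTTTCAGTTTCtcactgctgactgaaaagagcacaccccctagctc
A match describes the letters and does not show that a factor binds there. The genes were listed from general knowledge as interferon-stimulated, so their share with the motif says nothing about the difference between these hearts.

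Interferon also raises class I antigen presentation. Of 12 such genes 2 were higher and 3 lower against sham, beside 19.2% of all genes higher and 20.3% lower. Under total-count scaling 9 were higher and 1 lower. Psme1, an activator subunit of the proteasome, fell from 324.7, 275.4 and 255.6 CPM to 156.8, 162.3, 168.5 and 143.2 CPM (log2 -0.86, adjusted p = 5.54e-05). Of the same 12 genes 8 were higher and 2 lower in infarcted wild-type hearts against sham, beside 37.1% and 32.0% of all genes. In the knockout 9 were lower and 1 higher than in wild-type infarcted hearts, beside 26.0% and 25.0% of all genes.

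Genes of energy metabolism were lower in the knockout hearts. All 40 nuclear genes of oxidative phosphorylation tested were lower in knockout than in sham hearts (median log2 -1.05; 20.3% of all genes were lower), as were all 16 genes of the TCA cycle (median -1.08) and 19 of 24 genes of fatty acid oxidation (median -0.94). Sdha, the catalytic subunit of respiratory complex II, read 972.9, 949.1 and 832.6 CPM in sham and 377.1, 364.5, 429.7 and 347.9 CPM in knockout hearts (log2 -1.27 ± 0.20, adjusted p = 0.000215). Acaa2, the last enzyme of mitochondrial beta-oxidation, fell from 2505, 2537 and 1752 CPM to 916.3, 775.2, 985.6 and 654.1 CPM (2.72-fold lower, log2 -1.44, adjusted p = 0.000175). For both genes the 2 groups of hearts did not overlap, as was the case for 46.8% of all genes. In the wild type the lists fell further (medians -2.98, -2.94 and -2.84). Every gene of the 3 lists was higher in knockout than in wild-type infarcted hearts, beside 25.0% of all genes. Under total-count scaling the medians against sham were -0.51, -0.54 and -0.40, with 31 of 40, 14 of 16 and 15 of 24 genes still called lower. The median of the 21 cardiomyocyte markers had the same signs, at -0.67 against sham and 2.28 against wild-type infarcted hearts. The part of muscle content in these differences was not tested.

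Of 21 cardiomyocyte markers 9 were lower and 0 higher (median -0.67), beside 20.3% of all genes lower and 19.2% higher. Pln, phospholamban, the brake on the calcium pump, fell from 990.7, 953.6 and 771.7 CPM to 354.6, 358.9, 425.7 and 329.4 CPM (log2 -1.30, adjusted p = 0.000186), and Tnni3, cardiac troponin I, fell by -1.28 (adjusted p = 0.00492). Ryr2, the calcium release channel of the sarcoplasmic reticulum, stood at 95.74, 96.08 and 120.9 CPM in sham and at 121.1, 76.75, 115.1 and 109 CPM in knockout hearts (log2 0.02 ± 0.31, adjusted p = 0.968), with overlapping libraries. Actc1, cardiac alpha-actin, had a log2 fold change of -0.48 that did not pass (adjusted p = 0.179). In infarcted wild-type hearts all 21 markers were lower than in sham (median -3.10), beside 32.0% of all genes. All 21 were higher in knockout than in wild-type infarcted hearts (median 2.28), beside 25.0% of all genes. Under total-count scaling the marker median against sham was -0.12, with 3 genes lower and 1 higher. Among 21 cardiac ion channel genes 10 were lower and 2 higher. Kcnip2, the partner of the transient outward potassium channels, fell from 58.8, 52.8 and 61.3 CPM to 23.3, 17.3, 30.8 and 18.2 CPM (log2 -1.36, adjusted p = 0.000558). Of 16 genes of branched-chain amino acid and ketone catabolism 13 were lower and 1 higher, with Ppm1k, the phosphatase that activates the branched-chain dehydrogenase, at log2 -1.41 (adjusted p = 7.13e-07). Fbp2, a muscle enzyme of gluconeogenesis, fell by -1.69 (adjusted p = 2.34e-05).

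Most mitochondrially encoded genes were lower than in sham, beside 20.3% of all genes. Of 9 tested 7 were lower, 1 was higher and 1 did not pass (1 lower and 1 higher under total-count scaling, with a median of -0.29 against -0.82). mt-Nd6, a subunit of complex I, fell from 6200, 6488 and 6761 CPM to 2759, 2694, 3284 and 2818 CPM (log2 -1.17, adjusted p = 0.00142). Counts assigned to mt-Nd3, another subunit of the same complex, rose from 20.3, 29.9 and 44.3 CPM to 255, 283.2, 226.8 and 374.7 CPM (log2 3.18, adjusted p = 1.39e-05). They stood at 36.6 to 102.1 CPM in wild-type infarcted hearts. mt-Co2, mt-Co3, mt-Atp8 and mt-Nd4l did not pass the count filter. Mitochondrial genes have near-identical copies in the nuclear genome, and counting that sets aside shared reads can move their values, so single values here are uncertain. Whether reads of mt-Nd3 were shared with such a copy was not tested.

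Some stress genes of cardiomyocytes were higher in the knockout than in both other groups, among them Acta1 and Ankrd1. Of 15 genes 7 were higher and 0 lower than in sham (median 0.87), and 8 were higher and 0 lower than in infarcted wild-type hearts, where 3 were higher and 4 lower than in sham (median 0.06). Over all genes, 19.2% were higher in the knockout than in sham and 25.0% higher than in infarcted wild-type hearts. In infarcted wild-type hearts 37.1% of all genes were higher and 32.0% lower than in sham. Acta1, skeletal alpha-actin, a fetal gene switched on in stressed heart muscle, read 430.7, 686.6 and 552.7 CPM in sham, 2961, 1891, 4481 and 3922 CPM in knockout and 269.4 to 802 CPM in wild-type infarcted hearts. The lowest knockout heart was above every library of both other groups (5.95-fold over sham, log2 2.57 ± 0.42, adjusted p = 0.000247; log2 2.69 over wild type, adjusted p = 2.31e-05). Ankrd1, a sarcomere protein that responds to stretch, read 1179, 1830 and 1578 CPM in sham, 6155, 5722, 7976 and 8391 CPM in knockout and 1846 to 3946 CPM in wild-type infarcted hearts (log2 2.21 over sham, adjusted p = 4.6e-05; 1.49 over wild type, adjusted p = 0.00015). Xirp2, a protein of intercalated discs, rose by 1.61 over sham (adjusted p = 0.00604), and its difference from the wild type did not pass (0.85, adjusted p = 0.0616). Summed cardiomyocyte markers also differed between the 2 infarcted groups, at 14060 to 41300 CPM in the wild type against 69280 to 83880 CPM in the knockout, and their part in the difference from the wild type was not tested.

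The proximal upstream stretch of Acta1 is shown because it rose above both groups and holds a CArG box, the site known for serum response factor (CC, then 6 bases of A or T, then GG). The box occurred in windows of 2 of 13 stress genes with a RefSeq window, Acta1 and Fhl1, against 1.81% of all 27025 genes. The stretch lies on the minus strand at chr8:123894816-123894935 (GRCm38.p6), 160 to 41 bases before the start, with the box in capitals. No match in the other windows says only that these letters are not in them.
Acta1: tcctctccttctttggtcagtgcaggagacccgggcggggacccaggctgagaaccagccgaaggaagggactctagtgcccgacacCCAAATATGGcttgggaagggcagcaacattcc

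Of the natriuretic peptide genes, Nppa passed the test and Nppb did not. Nppa, which encodes ANP, read 135.4, 205.8 and 150.6 CPM in sham and 729.9, 773.1, 625.9 and 582.5 CPM in knockout hearts (4.13-fold, log2 2.05 ± 0.33, adjusted p = 0.000251), and 282 to 778.4 CPM in wild-type infarcted hearts, with no detectable difference between the 2 infarcted groups (log2 0.16, adjusted p = 0.656). Nppb, which encodes BNP, read 31.0, 47.6 and 63.2 CPM in sham and 49.3, 114.4, 63.9 and 213.5 CPM in knockout hearts. The groups overlapped, and the log2 fold change of 1.22 ± 0.54 did not pass (adjusted p = 0.0815). Nppb did pass under total-count scaling, with no filter on low counts, with only the groups compared in the fit, and without knockout replicate 1 or wild-type infarcted replicate 3, and the difference between the 2 peptide genes was not tested. The receptors Npr1, which makes cGMP, and Npr3, which clears the peptides, and the peptide-degrading protease gene Mme differed by log2 0.16, 0.32 and -0.40, none of which passed (adjusted p = 0.573, 0.446 and 0.236). Of 15 genes of natriuretic peptides and cGMP 4 were higher and 1 lower, beside 19.2% of all genes higher and 20.3% lower. Besides Nppa, the higher genes included both subunits of soluble guanylate cyclase, the nitric oxide receptor that makes cGMP by a separate route: Gucy1a1 (log2 1.30, adjusted p = 0.000541) and Gucy1b1 (0.83, adjusted p = 0.000289). Pde2a, a phosphodiesterase that breaks down cGMP, was lower (log2 -0.98, adjusted p = 0.00775), a call lost under total-count scaling.

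**Figure D3:**
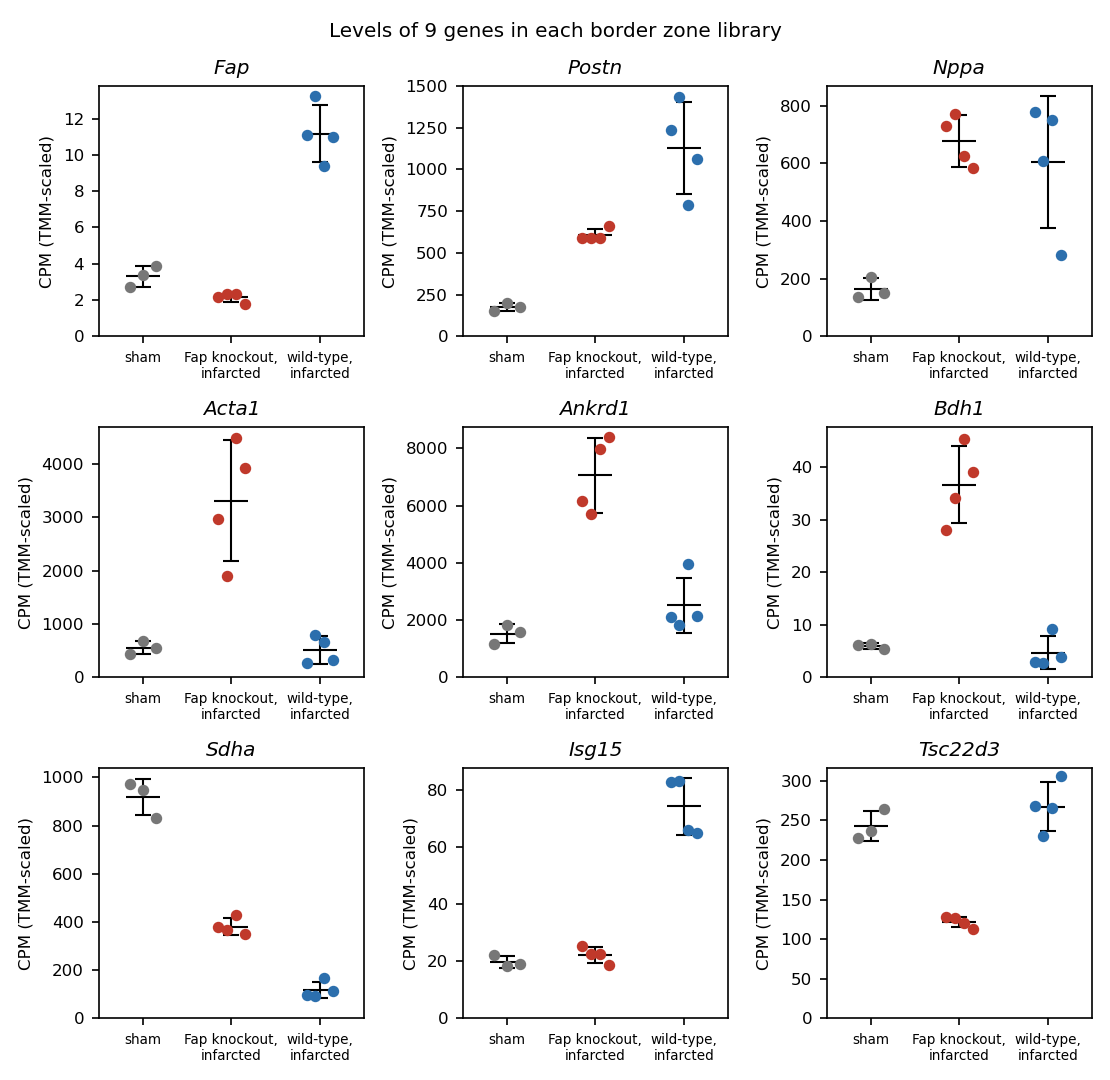
Levels in CPM (TMM-scaled, axes from 0) of 9 genes in each of 3 sham, 4 knockout infarcted and 4 wild-type infarcted libraries; points are libraries, bars the mean and SD. Acta1, Ankrd1 and Bdh1 are highest in the knockout hearts, Tsc22d3 and Fap lowest, Isg15 overlaps with sham, and Postn and Sdha lie between the other groups.

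A small set of genes stood beyond both other groups. In 268 genes (1.57%) the knockout differed from sham and from wild-type infarcted hearts in the same direction, 141 higher (0.826%) and 127 lower (0.744%). This count fell to 168 without sham replicate 1 and 169 without knockout replicate 3, while total-count scaling gave 299, 238 of them higher. Besides Acta1 and Ankrd1, the higher genes with the largest changes included Bdh1, the mitochondrial enzyme that interconverts the ketone bodies. It read 6.16, 6.40 and 5.38 CPM in sham, 28.12, 34.13, 45.43 and 39.04 CPM in knockout and 2.68 to 9.24 CPM in wild-type infarcted hearts (6.13-fold over sham, log2 2.62 ± 0.39, adjusted p = 0.000129). It was the one higher gene of the catabolism list above. No library of another group reached the lowest knockout heart. Tpm3-rs7, a relative of tropomyosin 3, was high in 2 knockout hearts only (1.59, 1.84, 71.5 and 38.4 CPM), lost its call with limma-voom and without sham replicate 1, and may share reads with its relatives. Myot, myotilin, a Z-disc protein, had a log2 of 1.41 (adjusted p = 0.0423) that was lost without any 1 of 6 libraries (every sham heart and knockout replicates 2, 3 and 4) and with DESeq2.

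Genes lower than in both groups, by the naming rule, were led by Slc10a6 and Tsc22d3. Tsc22d3, the glucocorticoid-induced leucine zipper, read 227.5, 236.8 and 263.9 CPM in sham, 127.7, 126.6, 120.1 and 113.4 CPM in knockout and 230 to 306.5 CPM in wild-type infarcted hearts (log2 -0.99 ± 0.12 against sham, adjusted p = 1.86e-05; -1.13 against wild type, adjusted p = 9.77e-07). The 4 knockout hearts lay close together, below every library of both other groups. Sgk1, a kinase that regulates ion transport, read 39.2, 45.9 and 47.6 CPM in sham and 18.9, 27.5, 23.9 and 22.1 CPM in knockout hearts (log2 -0.94, adjusted p = 0.00196). Nfkbia, the inhibitor of NF-kappa-B, fell from 210.8, 208.9 and 201.7 CPM to 115, 129.8, 116.9 and 109.3 CPM (log2 -0.82, adjusted p = 8.84e-05). Per1, a clock repressor, fell by -0.73 (adjusted p = 0.0004) and Ddit4, an inhibitor of mTOR signalling, by -0.82 (adjusted p = 0.0043). Fos, an immediate early transcription factor, fell from 21.6, 20.3 and 30.6 CPM to 4.98, 8.93, 6.45 and 10.8 CPM (log2 -1.63, adjusted p = 0.000504) and Hspa1a, an inducible HSP70, by -1.80 (adjusted p = 0.000813). Under total-count scaling Sgk1, Per1 and Ddit4 kept a negative sign and lost the call, and Tsc22d3, Nfkbia, Fos and Hspa1a kept it.

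Some immediate early genes and most clock genes also differed from sham. Of 17 immediate early genes 6 were lower and 2 higher, beside 20.3% of all genes lower and 19.2% higher. Nr4a1, an orphan nuclear receptor, fell from 68.4, 66.8 and 96.2 CPM to 8.59, 9.54, 10.1 and 9.87 CPM (8.1-fold lower, log2 -3.02 ± 0.21, adjusted p = 3.59e-07), to the level of wild-type infarcted hearts at 6.76 to 11.7 CPM. Dusp1, a phosphatase that ends MAP kinase signals, fell by -1.75 (adjusted p = 2.62e-05). The median of this list, -0.12, became 0.41 under total-count scaling, with 3 genes lower and 7 higher. Of 16 circadian clock genes 12 were lower and 3 higher. Ciart and Per2, 2 repressors, fell (log2 -1.27 and -1.02, adjusted p = 4.03e-05 and 7.48e-05), and Arntl and Clock, which together drive the clock, rose (1.57 and 0.68, adjusted p = 0.00064 and 0.00187). Under total-count scaling 4 genes were higher and 4 lower. The hour of tissue collection is not given in the sources used here, so it and the group cannot be told apart.

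Among the largest decreases was Aqp4, a water channel (log2 -3.07, adjusted p = 1.11e-06). It read 14.1, 11.5 and 19.9 CPM in sham and 1.76, 0.988, 1.95 and 2.54 CPM in knockout hearts, and 0.218 to 0.424 CPM in the wild type. Ano10, of the anoctamin family, fell 6.93-fold (log2 -2.79, adjusted p = 4.02e-07) and Mlf1, myeloid leukemia factor 1, 4.72-fold (log2 -2.24, adjusted p = 2.76e-05). Serpinb1c, a serine protease inhibitor with close paralogs, had the largest increase under the naming rule, from 1.17, 0.849 and 2.00 CPM to 8.67, 13.3, 17.3 and 16.7 CPM (10.5-fold, log2 3.39, adjusted p = 1.39e-05). Angptl4, an inhibitor of lipoprotein lipase induced by fatty acids, rose 5.48-fold (log2 2.45, adjusted p = 0.000984) and Gdf15, a secreted stress cytokine, 4.80-fold (log2 2.26, adjusted p = 0.000472).

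A handful of genes moved against the wild-type direction. Called in opposite directions against the same sham hearts were 26 genes, 19 higher and 7 lower in the knockout. Pdk4, the kinase that blocks glucose oxidation, read 14.1, 15.7 and 14.3 CPM in sham, 23.9, 28.8, 18.5 and 34.3 CPM in knockout and 5.29 to 10.1 CPM in wild-type infarcted hearts (log2 0.84 against sham, adjusted p = 0.00409; 1.71 against wild type, adjusted p = 2.61e-06). The 3 groups did not overlap, and the call held in every setting tried. The other higher genes named by the rule, Ptgds, Ucp3, Rbp7, Tacc2, Golga4, Ptpn11 and Rassf9, had log2 values of 0.52 to 1.12 against sham and lost that call when single libraries were left out, sham replicate 1 among them in each case. Ucp3, a mitochondrial carrier induced by fatty acids, read 6.65, 7.51 and 5.24 CPM in sham, 11.55, 9.27, 11.9 and 11.04 CPM in knockout and 0.578 to 0.778 CPM in wild-type infarcted hearts, and its difference from the wild type was the largest of these (log2 4.00, adjusted p = 2e-07). Gbp3, an interferon-induced GTPase, was lower in the knockout (log2 -0.44, adjusted p = 0.0149), a call lost under upper-quartile scaling and without sham replicate 2 and turned to 0.10 by total-count scaling.

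**Figure D4:**
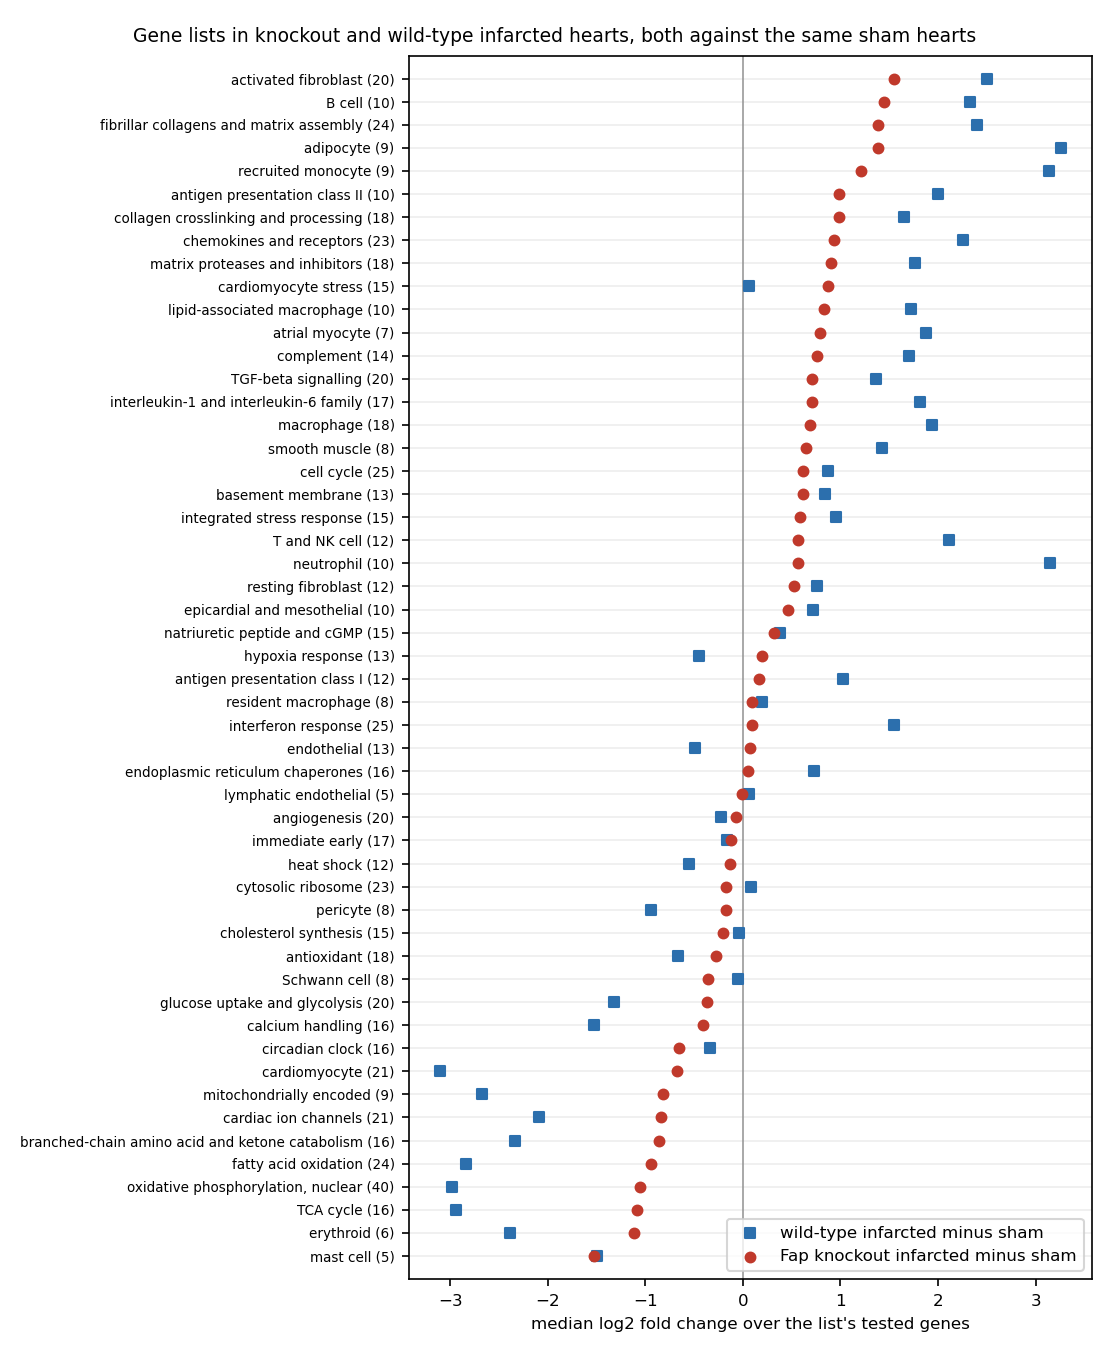
Median log2 fold change of 52 gene lists (number of tested genes in brackets) in knockout infarcted minus sham (circles) and wild-type infarcted minus sham (squares), both against the same 3 sham libraries. The activated fibroblast and collagen lists lie at 1.55 and 1.38 in the knockout, the TCA cycle and oxidative phosphorylation lists at -1.08 and -1.05, the mast cell list lowest at -1.53, and the interferon list at 0.09 against 1.55 in the wild type.

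Other cell types were read from their markers, beside 19.2% of all genes higher than in sham and 20.3% lower. Of 13 endothelial genes 1 was lower (Aqp1, log2 -1.24, adjusted p = 0.000168) and 0 higher, and their summed level was 2633 to 2709 CPM in sham and 2718 to 3041 CPM in knockout hearts. Of 9 adipocyte genes 5 were higher, and the summed level ran from 52.96 to 115.4 CPM in sham and from 76.6 to 741.3 CPM in knockout hearts, the highest in replicate 4. Adipoq, the adipocyte hormone adiponectin, read 4.31, 7.45 and 10.3 CPM in sham and 7.99, 28.48, 23.95 and 82.01 CPM in knockout hearts (log2 2.28, adjusted p = 0.0141), a call lost without knockout replicate 4 or sham replicate 1. Knockout replicate 4 also had the highest level of Hp, haptoglobin (35.3, 89.2, 72.6 and 230.2 CPM), whose call was lost without it and without sham replicate 1 or 2. The part of adipose tissue in other results was not tested. Of 25 cell cycle genes 9 were higher and 0 lower, with Mki67, the proliferation marker, at 3.82, 2.87 and 3.86 CPM in sham and 9.19, 9.74, 5.93 and 8.74 CPM in knockout hearts (log2 1.25, adjusted p = 0.00178) and no detectable difference from the wild type (log2 -0.16, adjusted p = 0.547).

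Genes next to Fap were read as well. Within 5 Mb on either side 35 genes were tested, and 1, Fap itself, stood beyond both other groups. A list written for the neighbourhood of Fap includes Fap itself. Of its 9 tested genes 6 were lower than in sham, Fap among them, and 0 higher. Their median log2 was -0.66, against 0.05 for all genes, of which 20.3% were lower. In infarcted wild-type hearts 5 of the 9 were lower and 2 higher than in sham (median -0.54), Fap among the higher. Over all genes 32.0% were lower and 37.1% higher there. Between knockout and wild-type infarcted hearts 4 of the 9 were higher and 3 lower in the knockout, Fap among the lower. Over all genes 25.0% were higher and 26.0% lower. On the whole of chromosome 2, 17 of 1269 genes stood beyond both other groups (1.34%, against 1.57% of all genes).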

How the data were processed

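Tissue labelled border zone was sequenced from libraries made by a modified Smart-seq2 method with molecular barcodes, per the labels' protocols. Reads were aligned with STAR to mm10 and counted with HTSeq, per the submitters' processing notes, with versions not given; whether molecules or reads were counted, and whether strand was used, is not given in the sources used here. The deposited values are raw counts per gene from the authors. No entry named something other than a gene (0 of 53801).

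Symbols came from a reference list of gene names, and positions and gene types from GENCODE M21. All 15 hearts entered 1 edgeR 4.0.16 fit (R 4.3.3): filterByExpr, TMM scaling (factors 0.626 to 0.697 in sham, 0.888 to 0.986 in knockout), glmQLFit and glmQLFTest, Benjamini-Hochberg adjustment, threshold 0.05. CPM are TMM-scaled, errors of means are SD, and SE is the absolute log2 fold change over the root of the F statistic. Members, lists (55, written from general knowledge) and tests were chosen with earlier results of these data known. Named genes followed a rule: the study's genes; up to 12 higher and 12 lower genes with the largest changes, at 10 CPM or more, without overlap and without clone names; 4 genes a list with the smallest p and members called against their list; up to 10 beyond both groups each way and 10 of opposite direction. Isg15, Ifit1, Ifit3, Rsad2, Stat2, Fhl1, Ryr2, Actc1, Col3a1, Scgb1a1 and Xist fall outside it and were chosen after their values were seen. Some genes that the rule names are not reported here.

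Alternatives were RLE, total-count and upper-quartile scaling, other filters, DESeq2 1.42.0, limma-voom (limma 3.58.1), a replicate block, only the groups compared, abundant genes removed and each heart left out. Tested on simulated data (17064 genes, knockout against sham), the fit found 23.9% of the genes given a 1.5-fold change, 77.6% at 2-fold and 95.5% at 4-fold, and called 5 unchanged genes. Only 67, 67 and 66 genes were changed at these sizes, in directions drawn at random, with all others alike in every group. The changed genes were drawn only from those above a minimum mean CPM, so recovery at lower levels was not measured. Far more genes were called in the hearts, so the simulation does not test the scaling there. Within each group, pairs of libraries differed beyond sampling noise (lowest chi-square over its degrees of freedom 14.2). Figures used Python 3.11.15 and matplotlib 3.10.9.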

Additional observations from a re-analysis of the deposited data

Results flagged for a closer look

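In 3 of 56 genes named by rule, about as many as chance gives, 1 knockout heart stood far from the other 3, measured as its gap to the nearest heart over the range of the group, against Dixon's critical value for 4 samples (chance flags about 1 in 20 groups). Postn had a ratio of 0.98 for the highest heart (663.4 CPM against 588.1 to 589.6 CPM, a narrow range), Dpp4 0.849 for the highest heart (1.75 CPM against 0.816 to 0.958 CPM) and Lamb3, a laminin subunit, 0.872 for the lowest heart (3.86 CPM against 8.16 to 8.79 CPM).

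The 10 genes named for opposite directions against sham were set side by side in knockout and wild-type infarcted hearts. With no knockout sham group, a difference in the effect of infarction could not be tested. The log2 differences, knockout minus wild type, were 4.00 for Ucp3, 2.95 for Rbp7, 2.58 for Ptgds, 1.71 for Pdk4, 1.57 for Rassf9, 1.55 for Tacc2, 1.27 for Golga4, 1.09 for Ptpn11, -1.37 for Gbp3 and -2.36 for Fap. These genes were chosen for opposite calls, which nearly fixes the differences, so the values are a description.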

How the results depend on the processing

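Against sham, 6740 genes were called; over the 10 settings other than leaving out a heart the count ran from 6177 (limma-voom) to 9994 (total-count scaling), and without single hearts from 4721 to 6902. Without any filter on low counts it was 6259, with DESeq2 6638. Genes called at 2-fold or more numbered 2028, or 4281 under total-count scaling and 1558 to 2299 without single hearts. Genes beyond both groups numbered 268, or 168 to 304 without single hearts; without a low-count filter 71.9% of 235 were higher. Replicate numbers were not taken to pair the hearts: deviations of same-numbered hearts correlated at 0.069, 0.016 and -0.067 (sham and knockout), 0.193, 0.103 and 0.078 (sham and wild-type infarcted) and 0.107, 0.065, 0.301 and 0.322 (knockout and wild-type infarcted), not above 0.1 in every pair, and a replicate block gave 6662 calls. The block ended the calls of Ptgds, Rassf9, Cd79b, Lck, Aldh1a2, Plin1, Gas6, B2m, Tap2, Psph and Gpx1 among 243 called genes examined. Of these 243 genes, 165 kept the call in every setting in which they were tested (20 or 21).

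Total-count scaling turned the sign of the medians of the pericyte (0.37), Schwann cell (0.16), glycolysis (0.17), calcium handling (0.12), immediate early (0.41), heat shock (0.4), cholesterol (0.35), antioxidant (0.27) and cytosolic ribosome (0.37) lists, and of Gbp3 (0.1), Col4a3 (0.01), Camk2d (0.07), Irf9 (0.14), Psme2 (0.01), Tap2 (0.19), Shmt2 (0.13), Psph (0.17), Dnajb9 (0.01), Canx (0.09), Hmgcs1 (0.21) and Rplp0 (0.19), none called there. These turns follow from the shift of the median gene. The atrial myocyte median turned to -0.11 with limma-voom and ran from -0.2 (without knockout replicate 1) to 0.98 without single hearts, and the epicardial and mesothelial median from -0.42 (without knockout replicate 4) to 0.75; the cause was not tested. Without the mitochondrially encoded genes that list has no value. In the simulated data at these depths, 23.9% of the 67 genes given a 1.5-fold change were found.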

Other observations

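Gene groups of protein and lipid upkeep are given by their counts, beside 19.2% of all genes higher and 20.3% lower. Of 12 heat shock genes 5 were lower and 1 higher than in sham; Dnajb1, a co-chaperone of HSP70, fell from 45.5, 69.8 and 56.0 CPM to 25.3, 31.3, 26.1 and 23.3 CPM (log2 -1.11, edgeR adjusted p = 0.000102), and was also lower than in wild-type infarcted hearts (log2 -0.56, adjusted p = 0.00504). Of 15 cholesterol synthesis genes 4 were lower and 0 higher, with Fdft1, squalene synthase, from 33.7, 31.7 and 31.1 CPM to 11.5, 12.7, 12.3 and 11.7 CPM (log2 -1.41, adjusted p = 4.02e-07). Of 18 antioxidant genes 8 were lower and 6 higher: Prdx3, the mitochondrial peroxiredoxin, fell from 336.8 to 398.8 CPM in sham to 166.3 to 205.3 CPM in knockout hearts (adjusted p = 0.000231) and the secreted enzymes Gpx3 and Sod3 rose (1.47 and 0.99, adjusted p = 0.000231 and 0.00116). Of 23 cytosolic ribosome genes 1 was higher and 2 lower. Total-count scaling turned the median of each of these 4 lists positive, with 5, 5, 8 and 17 genes higher and 2, 1, 3 and 0 lower.

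Pseudogenes with clone names, left out by the naming rule and chosen here after their values were seen, gave the strongest separations. Gm28438 (chromosome 1, 24612775 to 24613119) read 1027, 1126 and 1526 CPM in sham, 14.8 to 23.1 CPM in knockout and 14.7 to 19.5 CPM in wild-type infarcted hearts (log2 -5.99 against sham, edgeR adjusted p = 2.25e-10). Gm10222, beside it, fell by -3.86 (adjusted p = 4.94e-10). Gm14719 (chromosome X, 49660960 to 49661299), a processed pseudogene, read 0.588 to 1.93 CPM in sham, 18.3, 33.4, 46.3 and 40.2 CPM in knockout and 0.279 to 1.09 CPM in wild-type infarcted hearts (log2 4.95 against sham, adjusted p = 1.77e-06). Reads of pseudogenes can be shared with other copies, so these values are uncertain.

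Scgb1a1, a secretory protein of airway epithelium, was at 51.9 CPM in sham replicate 2 and at 0.739 and 0.482 CPM in the other sham hearts, against 1.56 to 2.21 CPM in knockout hearts. Xist, the RNA of the inactive X chromosome, was at 0.515 to 2.06 CPM in knockout, 0.551 to 1.44 CPM in sham and on average 0.103 CPM in wild-type infarcted hearts, a difference between knockout and wild-type infarcted hearts of log2 3.52 (adjusted p = 3.01e-05).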
